A study of Mus musculus with 4 samples.

Results

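The genes described here encode nuclear subunits of respiratory complexes I to IV, the proteins that pass electrons from NADH and succinate to oxygen in the mitochondrial inner membrane. The set is a fixed list of 44 subunit genes chosen by function: 26 of complex I, 4 of complex II, 6 of complex III and 8 of complex IV. Symbols were read from the amplicon names of the deposited table, and 42 of the 44 genes had an amplicon among the 23930 in the table. Ndufa7 and Cox7c were not analysed here. All 42 reached the filter of at least 1 RPM in at least 2 libraries, which left 11638 genes for testing. RPM scales the reads of an amplicon to the read total of its library.

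The cells were primary progenitor cells of mouse subcutaneous tissue (strain C57BL/6) in which Gnas was floxed. Gnas codes for Gsα, the G protein subunit through which receptors switch on cyclic AMP synthesis. The 2 control libraries came from cells infected with Ad-GFP (genotype wild type) and the 2 mutant libraries from cells infected with Ad-Cre (genotype Gnas-/-). All were kept in osteogenic medium for 7 days after infection, and RNA was read with an amplicon panel of 1 short target per gene. Cre came from an adenovirus and not from a tissue-specific promoter, and the virus differs between the groups together with the genotype, so the effects of virus and genotype cannot be told apart. The age of the mice is not in the labels, and neither is whether replicate libraries were grown from different animals or dishes. The p-values therefore reflect only library-to-library spread, which may be technical between the mutants; the controls differed in ways, given below, that repeats of 1 RNA sample would not.

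Complex I oxidises NADH, complex II oxidises succinate, complex III carries electrons from ubiquinol to cytochrome c, and complex IV reduces oxygen. Complexes I, III and IV also pump protons, and the ATP synthase uses that gradient. Complexes I, III and IV are built from subunits of both the nuclear and the mitochondrial genome, and the nuclear genes are widely expressed housekeeping genes. None of the mitochondrially encoded subunit genes was analysed here. In bone-forming cells and their precursors, glycolysis and respiration are both known to serve as sources of ATP.

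The libraries held 13483518 to 18455811 reads, recovered from the RPM steps. No row was named Gnas, so the targeted gene could not check the labels. The stromal genes Pdgfra (92.1 to 128 RPM) and Col1a1 (5332 to 21009 RPM) were present in every library, while the muscle regulator Myog and the adipocyte hormone gene Adipoq stood at or below 0.269 RPM in each. Control 2 stood apart from control 1. Across tested genes the controls correlated at r = 0.916 and the mutants at r = 0.981 (across genes, which are not independent replicates). In the order control 1, control 2, mutant 1, mutant 2, the 9 mesenchymal progenitor markers with an amplicon summed to 16400.5, 22437, 34681 and 38738 RPM. Both mutants lay above both controls in that sum. They did so in 6 of the 9 genes (66.7%), against 30.6% of all tested genes. The list's median difference was 0.80 on the log2 scale, and 1 of the 9, Dpt, was called higher (limma adjusted p = 0.0389, edgeR 0.0848, and 0.0516 with median-of-ratios scaling). Limma called 1.73% of all tested genes higher. The 14 macrophage markers summed to 50.9, 981, 30.2 and 16.9 RPM. The defining gene Ptprc stood at 0.217, 2.67, 0 and 0 RPM and Lyz2 at 33.9, 822, 20.8 and 10.4 RPM, where 0 allows up to 3 reads, or 0.172 and 0.202 RPM in the mutants (counting error only). The 7 endothelial markers summed to 9.97, 85.6, 18.3 and 36.6 RPM, the 10 muscle markers to 58.7, 117, 52.6 and 131 RPM and the 9 adipocyte markers to 101, 109, 136 and 142 RPM. Xist, transcribed from the inactive X of females, stood at 165, 0, 395 and 419 RPM, and the Y-linked Ddx3y at 61.4, 124, 26.9 and 12.5 RPM. Y transcripts were thus present in every library, and Xist was lower and Ddx3y higher in both controls than in both mutants. The part of these differences in the results below was not tested, and the main results are also given against each control alone.

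Most subunit genes of complexes I to IV differed little in mean level between mutant and control cells: apart from Cox7a2, the ratio of mutant to control mean ran from 0.527 (Ndufa6) to 1.37 (Ndufa4). None of the 42 passed the threshold in either direction (limma, adjusted p below 0.05), while 1.73% of all tested genes were called higher and 0.576% lower (2.3% in all). At an unadjusted p below 0.05, 3 members were lower and 0 higher, against 6.01% and 11.9% of all tested genes. EdgeR called 0 members (0.567% of all genes higher and 0.232% lower, 0.799% in all). A limma fit with a replicate block also called 0 (2.59% of all genes higher and 1.06% lower, 3.64% in all). DESeq2 called 0 members higher and 3 lower, against 5.14% and 4.24% of all genes (9.37% in all). The 3 genes were the same by limma's unadjusted p and by DESeq2: Ndufa6, Ndufs6 and Uqcrq.

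**Figure D1:**
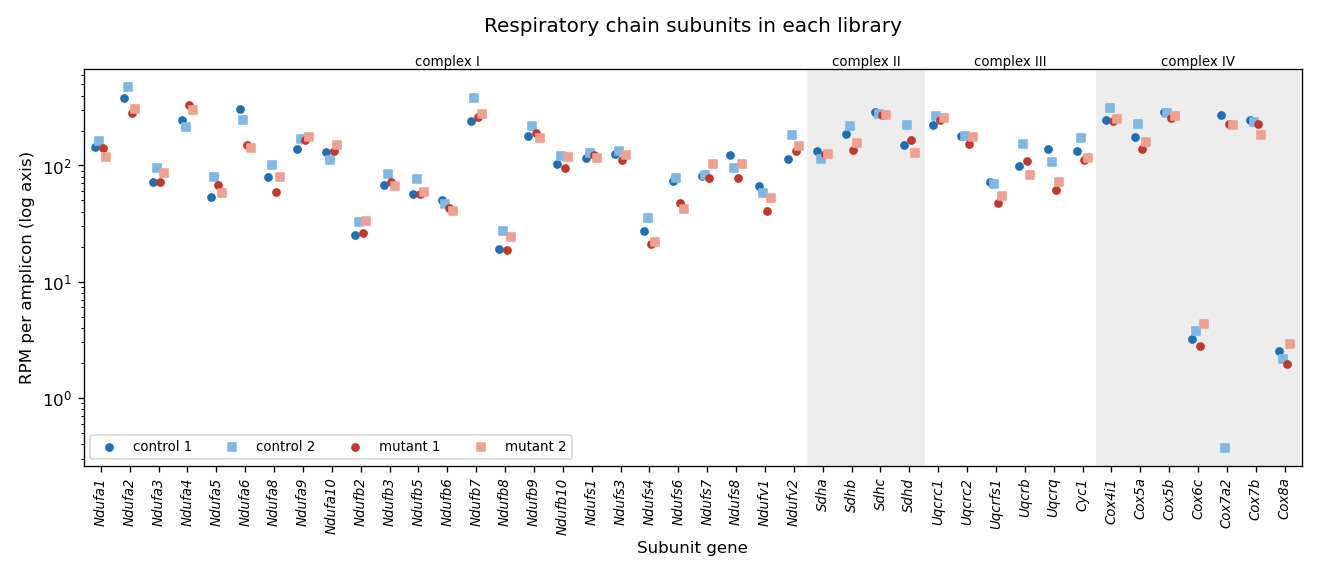
RPM per amplicon (log axis) of the 42 subunit genes in each library, in bands by complex, with circles for replicate 1 and squares for replicate 2. The 4 points of most genes lie close together, while Cox7a2 in control 2 stands at 0.371 RPM against 224 to 274 RPM in the other libraries.

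Small differences leaned downwards in the mutants. The median log2 fold change of the 42 genes was -0.13, beside 0.08 over all tested genes, and 32 of 42 members lay below 0 (76.2%), as did 43.8% of all tested genes. With median-of-ratios scaling in place of RPM both medians moved down together, to -0.22 for the members and to -0.0002 for all genes. With that scaling 37 of 42 members lay below 0, as did 5821 of the 11638 tested genes. Leaving out Cox7a2, described below, gave a median of -0.14. Summed over the 41 other genes, the amplicons took 5597 and 6289 RPM in controls 1 and 2, and 5099 and 5219 RPM in mutants 1 and 2. In these sums both mutants lay below both controls, and the 2 controls were further apart than the mutants. Bulk RNA cannot tell fewer cells of a type from less RNA per cell.

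The members varied little among libraries. The median absolute log2 difference between the 2 controls was 0.29 for members and 0.43 for all tested genes, and between the mutants 0.16 and 0.23. For the 8305 tested genes with a mean of at least 10 RPM the same medians were 0.41 and 0.20. Only Cox7a2 among the 42 differed by over 2-fold between the controls, as did 18.2% of all tested genes. The other 41 genes ranged from 0.762 (Uqcrq) to 1.60 (Ndufv2) as a ratio of control 2 to control 1, with 27 higher in control 2. Their median standard error in the comparison of groups was 0.22 on the log2 scale. For 29 of these 41 genes the 95% interval of the log2 fold change lay wholly between -1 and 1, which leaves out a 2-fold change either way. For the other 12 the interval reached -1, and for none did it reach 1.

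**Figure D2:**
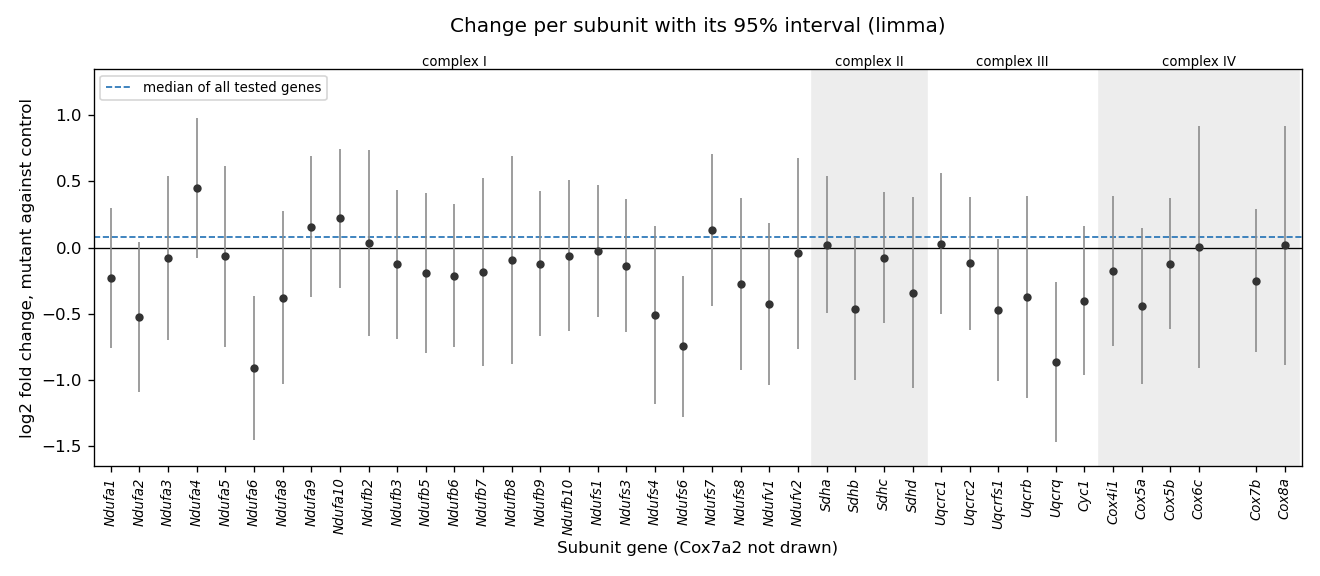
Log2 fold change on the log2(RPM + 1) scale of mutant against control with limma's 95% interval for 41 subunit genes, in bands by complex; the dashed line is the median of all tested genes (0.08) and Cox7a2 (3.55) is not drawn. The intervals of Ndufa6, Ndufs6 and Uqcrq lie below 0 and the other 38 hold 0.

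In 17 of 42 members both mutant libraries lay below both controls (40.5%), as in 21.1% of all tested genes. In 2 members, Ndufa4 and Ndufa10, both mutants lay above both controls (4.76%), as in 30.6% of all tested genes. The groups overlapped in the remaining 23. The 17 were 8 of 25 genes of complex I, 2 of 4 of complex II, 4 of 6 of complex III and 3 of 7 of complex IV. The ratio of mutant to control mean RPM ran from 0.527 (Ndufa6) to 0.750 (Cyc1) in 10 of the 17, and from 0.845 (Cox7b) to 0.948 (Sdhc) in the other 7.

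As listed, complex I held both the lowest and the highest of the well-measured members, the highest being Ndufa4, whose place is described below. None of its 25 genes was called by limma, 2 were lower at an unadjusted p below 0.05, edgeR called 0 and DESeq2 2, and the median log2 fold change was -0.13. The sign of that median depended on the control: it was 0.03 against control 1 alone and -0.29 against control 2 alone. Ndufa6, an accessory subunit of the matrix arm with an LYR motif that binds the mitochondrial acyl carrier protein, gave 306 and 249 RPM in controls 1 and 2, against 152 and 141 RPM in mutants 1 and 2. Both mutants lay well below both controls. The means were 277 ± 40.3 and 146 ± 7.63 RPM (SD, n = 2 here and below), a ratio of 0.527. The log2 fold change was -0.91 (SE 0.21, 95% interval -1.46 to -0.37, limma adjusted p = 0.118). DESeq2 gave an adjusted p of 0.00188 and edgeR 0.124, within a range of 0.00188 to 0.786 over 14 alternatives.

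Ndufs6, a zinc-binding accessory subunit next to the NADH-oxidising module, stood at 72.9 and 77.9 RPM in controls 1 and 2 and at 47.1 and 42.1 RPM in mutants 1 and 2. Libraries of a group were close to each other and the groups did not overlap. Its log2 fold change was -0.75 (SE 0.21, adjusted p = 0.167, range 0.0401 to 0.826 over 14 alternatives). Ndufs4, the other accessory gene of the Ndufs series, gave 27 and 35.6 RPM in the controls and 21.2 and 21.9 RPM in the mutants. Ndufa2, an accessory subunit of the matrix arm with a thioredoxin-like fold, gave 381 and 473 RPM in the controls and 286 and 305 RPM in the mutants with a log2 fold change of -0.52 (adjusted p = 0.309). Both Ndufs4 and Ndufa2 were lower in each mutant than in each control without passing the threshold.

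The 6 core subunits of complex I, which carry the flavin, the iron-sulfur clusters and the quinone site, had a median log2 fold change of -0.09, with a range from -0.43 (Ndufv1, the NADH-binding flavoprotein) to 0.13 (Ndufs7). Ndufs1, which carries several of the iron-sulfur clusters, had mean values of 122 ± 7.47 RPM in controls and 120 ± 6.26 RPM in mutants. The 8 accessory genes of the Ndufb series, subunits of the membrane arm, had a median of -0.12 and ranged from -0.21 to 0.04. Their median was 0.04 against control 1 alone and -0.28 against control 2 alone. The 2 genes nearest the median of complex I, Ndufb3 and Ndufb9, belong to this series. Ndufb3 stood at 67.9, 85.1, 72.1 and 67.2 RPM in control 1, control 2, mutant 1 and mutant 2, and Ndufb9 at 178, 220, 191 and 173 RPM. In both genes control 2 was the highest library and the other 3 were alike. Ndufb7 showed the same order most clearly, with 379 RPM in control 2 and 243 to 276 RPM in the others (chosen after its values were seen). Among the 8 accessory genes of the Ndufa series the median was -0.15, and 3 (Ndufa1, Ndufa2 and Ndufa6) were lower in both mutants than in both controls. Ndufa9, which binds NADPH near the junction of the arms, stood at 139 and 168 RPM in controls 1 and 2 and at 165 and 177 RPM in mutants 1 and 2, with overlap. Ndufa8 gave 79.4 and 101 RPM in the controls and 59 and 79.7 RPM in the mutants, where mutant 2 was level with control 1.

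Ndufa4 lay on the other side of 0. It is named as a complex I gene, but its protein is now counted with complex IV. It stood at 248 and 214 RPM in controls 1 and 2 and at 330 and 301 RPM in mutants 1 and 2. Both mutants lay above both controls, with a mean ratio of 1.37 and a log2 fold change of 0.45 (SE 0.21, 95% interval -0.08 to 0.98, adjusted p = 0.343). Ndufa10, an accessory subunit on the matrix face of the membrane arm, gave 131 and 112 RPM in the controls and 134 and 149 RPM in the mutants, so the lower mutant was nearly level with the higher control.

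Complex II, which also runs the succinate step of the tricarboxylic acid cycle, had a median log2 fold change of -0.21 over 4 genes, with 0 calls by limma (0 at an unadjusted p below 0.05), edgeR or DESeq2. Sdhb, the iron-sulfur subunit, stood at 185 and 220 RPM in controls 1 and 2 and at 136 and 157 RPM in mutants 1 and 2. Its difference was -0.46 on the log2 scale (SE 0.21, adjusted p = 0.342). The flavoprotein gene Sdha had 134 and 114 RPM in the controls, against 125 and 126 RPM in the mutants, so its mutants lay between its controls. Sdhb and Sdha together make up the soluble catalytic part. The membrane anchor gene Sdhc ran from 270 to 291 RPM over the 4 libraries. The other anchor gene, Sdhd, stood at 151 and 225 RPM in controls 1 and 2 and at 166 and 128 RPM in mutants 1 and 2, so its groups overlapped.

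Complex III had the lowest median of the 4 complexes, -0.39 over 6 genes, with 5 of 6 below 0. None was called by limma or edgeR, and 1 was lower at an unadjusted p below 0.05 and by DESeq2. That gene was Uqcrq, a small subunit of the membrane part, which stood at 139 and 106 RPM in controls 1 and 2 and at 61 and 72.3 RPM in mutants 1 and 2. The groups did not overlap, with means of 123 ± 23.4 and 66.7 ± 8.02 RPM and a ratio of 0.543. Its log2 fold change was -0.86 (SE 0.24, 95% interval -1.47 to -0.26, adjusted p = 0.164, range 0.0158 to 0.827 over 14 alternatives). Uqcrfs1, the Rieske iron-sulfur protein, gave 72.4 and 69 RPM in the controls and 47.3 and 54.4 RPM in the mutants. Cyc1, which encodes cytochrome c1, gave 133 and 173 RPM in the controls and 112 and 117 RPM in the mutants. These 2 redox subunits were lower in both mutants without passing (adjusted p = 0.331 and 0.415). Uqcrb stood at 98.7, 153, 109 and 82.1 RPM in control 1, control 2, mutant 1 and mutant 2, with overlap. The core genes Uqcrc1 and Uqcrc2 had mean ratios of 1.02 and 0.922.

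Complex IV had a median of -0.12 over 7 genes, or -0.15 without Cox7a2, with 0 calls by limma (0 at an unadjusted p below 0.05), edgeR or DESeq2. Cox5a, an early-assembling subunit, stood at 177 and 229 RPM in controls 1 and 2 and at 138 and 160 RPM in mutants 1 and 2. The difference was -0.44 on the log2 scale (SE 0.23, adjusted p = 0.395). Cox5b gave 287 and 282 RPM in the controls and 258 and 265 RPM in the mutants, and Cox7b at 246 and 239 RPM against 226 and 184 RPM. In these 3 genes the groups did not overlap, by margins that were small next to the spread for Cox5a and Cox7b. Cox4i1, the ubiquitous form of the subunit at which ATP regulates the enzyme, stood at 245, 314, 241 and 249 RPM in control 1, control 2, mutant 1 and mutant 2. The amplicons of Cox6c and Cox8a gave only 2.81 to 4.31 and 1.95 to 2.90 RPM, with 29 to 64 reads per library. RPM of an amplicon also depends on how well that target amplifies, so levels were not compared between genes.

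Cox7a2, the broadly expressed form of a small complex IV subunit, had an amplicon near 0 in a single library. Control 2 gave 0.371 RPM (5 reads) where control 1 gave 274 RPM, and mutants 1 and 2 gave 227 and 224 RPM. The 3 libraries other than control 2 were alike, with a ratio of mutant mean to control 1 of 0.824. Its log2 fold change of 3.55 (SE 2.38, 95% interval -2.49 to 9.58, adjusted p = 0.498) therefore rested on control 2, and was -0.28 against control 1 alone and 7.37 against control 2 alone. Without the logarithm of single libraries, edgeR and DESeq2 both gave 0.70. An amplicon was taken as near 0 in a single library where it stood below 5% of the lowest of the others, that lowest being at least 10 RPM. There were 22 such amplicons in control 2 and 8 in control 1. The 22 included that of Xist, at 0 RPM in control 2. A sequence variant under a primer can silence a single amplicon in such a pattern, and whether it did so here was not tested. The gene of Cox7a2 lies on chromosome 9 at 79755361 to 79759878 (GRCm38, minus strand). The nearest other such gene, Elovl5, lies on the same chromosome 1.77 Mb away and stood at 194, 0.519, 112 and 121 RPM in control 1, control 2, mutant 1 and mutant 2 (Elovl5 was picked after its values were seen). Among the genes of respiratory chain assembly, Sdhaf2, which helps attach the flavin to Sdha, showed the same pattern with 66, 0.074, 42.2 and 43.6 RPM.

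The comparison with each control alone set the members against 2 cultures that differ from each other. Fits with a lone control assume that it varies as the mutants do. Against control 1 the median log2 fold change of the members was -0.08 (0.02 over all genes). Of the members 25 of 42 lay below 0, as did 5655 of the 11638 tested genes. Against control 2 the median of the members was -0.28 (0.14 over all genes). There 35 of 42 members lay below 0, as did 4866 of the 11638 tested genes. The lean downwards was thus larger against control 2, the culture with the higher subunit sum. Against control 1, 2 members were called lower (Ndufa6, adjusted p = 0.0103, and Uqcrq, 0.0158) and 0 higher, where limma called 6.82% of all tested genes lower and 9.15% higher (16% in all). Against control 2, 3 were called lower (Ndufa6, adjusted p = 0.0306, Ndufs6, 0.0401, and Ndufa2, 0.0452) and 1 higher (Cox7a2), where 6.89% of all tested genes were called lower and 13.8% higher (20.7% in all). Ndufa6 was the only member called against each control. Its mutant mean was 0.478 of control 1 and 0.588 of control 2. Uqcrq gave 0.478 and 0.627, Ndufs6 0.612 and 0.573, and Ndufa4 1.27 and 1.48. In all, 39 of 42 members had a mutant mean within 1.5-fold of control 1 and 32 within 1.5-fold of control 2.

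**Figure D3:**
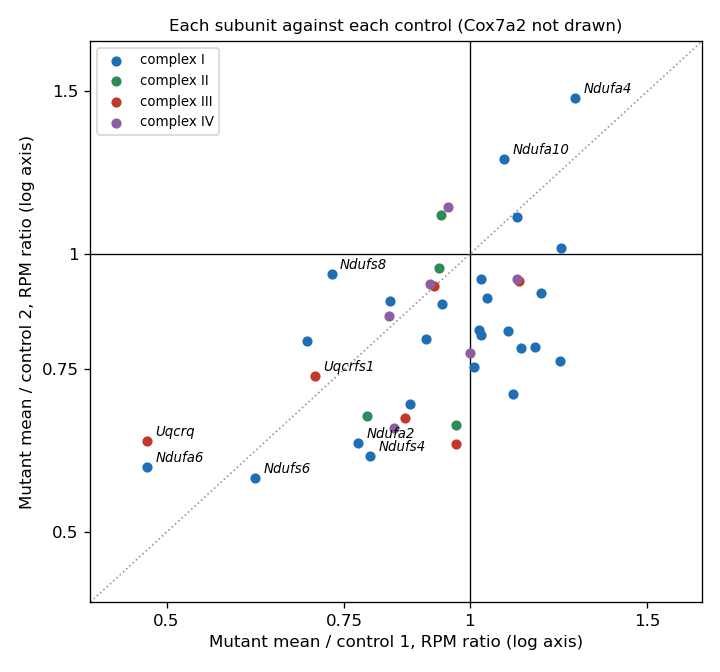
Ratio of the mutant mean RPM to control 1 (horizontal) and to control 2 (vertical) for 41 subunit genes, coloured by complex, on log axes; Cox7a2 is not drawn and the dotted line marks equal ratios. Ndufa6 and Uqcrq lie furthest left (both 0.478), Ndufs6 lies lowest (0.573) and Ndufa4 (1.27 and 1.48) lies highest and furthest right.

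Promoter sequences were available for 34 of the 44 genes (RefSeq, GRCm38.p6), and none was used for Cox4i1, Cox6c, Cyc1, Ndufa2, Ndufb9, Ndufs1, Sdhc, Uqcrb, Uqcrc2 and Uqcrq. The 250 bases before the start were searched on both strands for the site of NRF1, a factor known to drive many respiratory genes (GCGCA, any base, GCGC), the ETS site bound by GABP (CCGGAAG), the full cyclic AMP response element bound by CREB (TGACGTCA), the YY1 site (AAGAT followed by GGCGG) the ERR site (TCAAGGTCA), the TGACG half-site of the cyclic AMP element, the GC box (GGGCGG) and the CCAAT box (CCAAT). The half-site overlaps every full element. The cyclic AMP element was included because Gnas acts through cyclic AMP. The NRF1 letters were in 5 of the 34 genes (14.7%) and in 3.74% of all 32851 promoters. Here and below, the first share counts a gene where any of its promoters matched, while the second counts single promoters. The shares therefore differ in unit, and no enrichment is read from them. The ETS letters were in 4 (11.8%, against 6.91%), the cyclic AMP element in 3 (8.82%, against 1.55%), and the YY1 and ERR letters in none (0.301% and 0.387% of all promoters). The half-site was in 12 (35.3%, against 17.8%), the GC box in 12 (35.3%, against 32.7%) and the CCAAT box in 9 (26.5%, against 33.8%). A match is a description of the letters and not a bound site. The NRF1 and cyclic AMP matches are shown because they let a reader set the letters beside the values of each gene. They are written 5′ to 3′ on the strand of the gene, with the match, on either strand, in capitals.
Ndufs6 NRF1, chr13:73328483-73328507 (minus): gactgctgtGCGCCTGCGCcggcac
Ndufa5 NRF1, chr6:24527698-24527725 (minus): gtgtgagctGCGCAGGCGCaaatctacc
Ndufa8 NRF1, chr2:36049350-36049377 (minus): tagagcagtGCGCTTGCGCgtcgctgga
Sdhd NRF1, chr9:50603910-50603937 (minus): cgctggggtGCGCACGCGCggtggcagc
Sdha NRF1, chr13:74350320-74350347 (minus): gtttacaggGCGCAGGCGCaccaccact
Sdha NRF1, chr13:74350277-74350304 (minus): gggcgtgttGCGCAGGCGCagaatcttc
Sdha NRF1, chr13:74350241-74350259 (minus): cgactcggtGCGCAAGCGC
Uqcrfs1 cyclic AMP element, chr13:30545329-30545354 (minus): gcgtcgcgcTGACGTCAcaaaccctg
Ndufa10 cyclic AMP element, chr1:92473809-92473834 (minus): actcagtggTGACGTCAtggcagcgc
Ndufb2 cyclic AMP element, chr6:39592542-39592564 (plus): gcgacgcagTGACGTCAcgggcc

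The log2 fold changes of genes with the same letters were set side by side, and differences among these genes were not tested. Of the NRF1 genes, Sdha holds 3 matches and had a log2 fold change of 0.02, Ndufa5 of -0.06, Sdhd of -0.34, Ndufa8 of -0.38 and Ndufs6 of -0.75. Of the genes with the cyclic AMP element, Uqcrfs1 had -0.47, Ndufb2 0.04 and Ndufa10 0.22. None of these 8 passed the threshold. The window of Ndufa6, the lowest member, held the CCAAT letters and none of the others searched.

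Other parts of the respiratory system also gave few or no calls. Of all tested genes limma called 2.3%, edgeR 0.799% and DESeq2 9.37%. At an unadjusted p below 0.05, 11.9% were higher and 6.01% lower. These shares stand beside the counts of this and the related lists below. At the limma share a short list would hold few calls or none. Of 12 tested subunits of complexes I to IV outside the list, 0 were called by limma (1 higher at an unadjusted p below 0.05, edgeR 0, DESeq2 1 higher), with a median log2 fold change of -0.04. Their median was 0.05 against control 1 alone and -0.23 against control 2 alone. The 1 higher gene was Ndufa11, a membrane-arm subunit of complex I, which stood at 205 and 254 RPM in controls 1 and 2 and at 487 and 487 RPM in mutants 1 and 2. It gave 1.09 on the log2 scale (adjusted p = 0.0891, range 0.00535 to 0.733 over 14 alternatives). Both mutants were higher than both controls, the opposite direction to Ndufa6. Ndufc1 and Uqcrh had adjusted p = 0.320 and 0.469. Of 10 tested ATP synthase genes, 0 were called by limma (0 at an unadjusted p below 0.05), edgeR or DESeq2, with a median of -0.12. That median was 0.07 against control 1 alone and -0.47 against control 2 alone. All 10 overlapped between groups, as did 5615 of the 11638 tested genes. The nearest to a change were Atp5j, Atp5e and Atp5g3 (limma adjusted p = 0.670, 0.706 and 0.718).

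Genes that build and maintain the chain gave few calls, though many mitochondrial ribosomal genes lay slightly lower. Of 36 tested assembly factors 0 were called by limma (1 lower at an unadjusted p below 0.05, edgeR 0, DESeq2 0), with a median of -0.01 and Timmdc1, Ndufaf6 and Ndufaf4 nearest (log2 fold changes -0.57, -0.86 and -0.64). All 3 serve complex I assembly. Of 68 tested mitochondrial ribosomal protein genes 0 were called by limma (1 higher and 6 lower at an unadjusted p below 0.05, edgeR 0, DESeq2 2 lower). Their median was -0.24, with 53 below 0 (77.9%, against 43.8% of all tested genes) and 35 lower in both mutants than in both controls (51.5%, against 21.1%). Mrps10 gave 110 and 130 RPM in the controls and 66.8 and 58.7 RPM in the mutants (adjusted p = 0.115), and Mrpl47 and Mrpl38 had log2 fold changes of -0.94 and -0.68. Of 16 tested genes for electron carriers and coenzyme Q synthesis 0 were called by limma (1 lower at an unadjusted p below 0.05, edgeR 0, DESeq2 1 lower), with a median of -0.26. Coq7, a hydroxylase of coenzyme Q synthesis, gave 27.8 and 27.1 RPM in the controls and 14.4 and 15.1 RPM in the mutants (adjusted p = 0.180). Coq3 and Adck3 had log2 fold changes of -0.89 and 1.14.

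Regulators of mitochondrial gene expression showed no common direction. Of 20 tested, 0 were called by limma (2 higher at an unadjusted p below 0.05, edgeR 0, DESeq2 1 higher), with a median of 0.03. Nrip1, a corepressor of oxidative genes, gave 40.9 and 37.5 RPM in the controls and 90.2 and 68 RPM in the mutants, a difference of 0.98 on the log2 scale (adjusted p = 0.130). Esrrg and Ppargc1b were at low levels (log2 fold changes 1.12 and -0.68, adjusted p = 0.205 and 0.535). Chosen after their values were seen, Nrf1 stood at 41.7, 30.6, 42.9 and 32.3 RPM in control 1, control 2, mutant 1 and mutant 2, and the mitochondrial transcription factor gene Tfam at 27.2, 20.3, 31.5 and 18.1 RPM. Both overlapped between the groups. The coactivator gene Ppargc1a, also chosen after its values were seen, was at or below 2.09 RPM in each library. Of 15 tested tricarboxylic acid cycle genes 0 were called by limma (1 higher at an unadjusted p below 0.05, edgeR 0, DESeq2 0), with a median of -0.21. Ogdh, Pdha1 and Dlat lay nearest, with log2 fold changes of 0.54, -0.51 and -0.43.

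Isoforms that replace a ubiquitous subunit in certain tissues or conditions differed widely between the controls. Ndufa4l2, a paralog of Ndufa4 known to be induced in hypoxia, stood at 504 RPM in control 2 but at 9.16 RPM in control 1 and at 6.70 and 9.77 RPM in mutants 1 and 2 (adjusted p = 0.446). Cox4i2, the hypoxia-responsive form of Cox4i1, stood at 0, 26.2, 0.172 and 0.337 RPM in control 1, control 2, mutant 1 and mutant 2 (chosen after its values were seen). Both were high in control 2 alone. The muscle form Cox6a2, also chosen after its values were seen, was high in control 1 alone, at 11.2 RPM against 0.074 RPM in control 2 and 0.401 and 0.404 RPM in the mutants. Cox6b2, a form best known from testis, gave 2.66 and 13.2 RPM in controls 1 and 2 and 27.3 and 65.6 RPM in mutants 1 and 2, a difference of 2.59 on the log2 scale (adjusted p = 0.180, and 0.0234 with a replicate block). The muscle-type Cox7a1 stayed at or below 4.30 RPM. Of the 3 isoform genes that reached the filter 0 were called by limma (1 higher at an unadjusted p below 0.05, edgeR 0, DESeq2 1 higher).

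**Figure D4:**
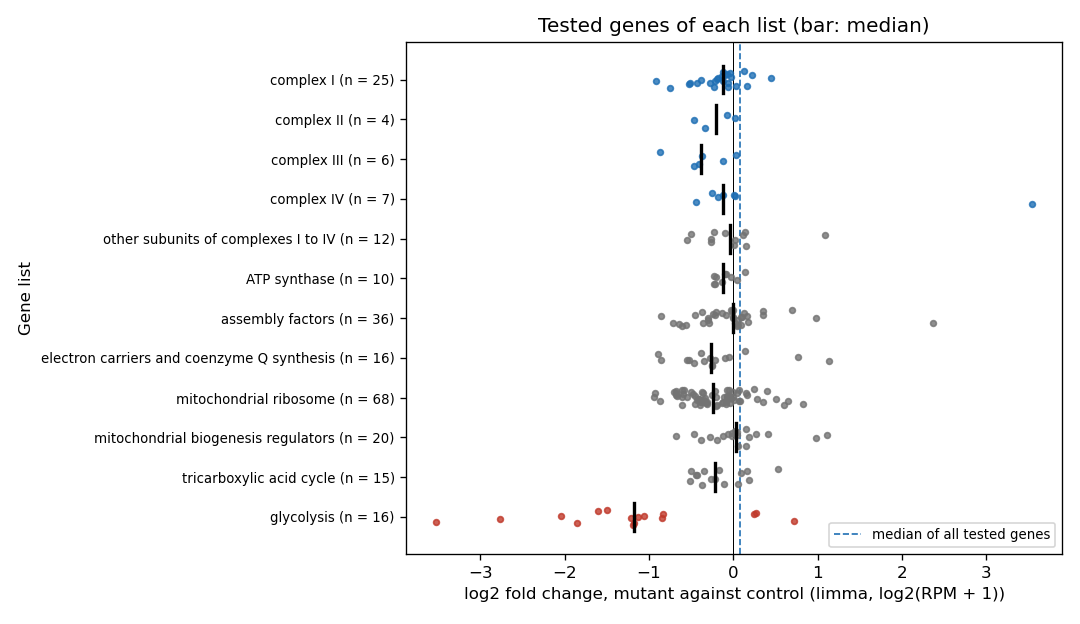
Log2 fold change of mutant against control for each tested gene (points) of the 4 complexes and of 8 related lists, with the number tested and a bar at the median; the dashed line is the median of all tested genes. The respiratory lists centre between -0.39 and 0.03, while glycolysis centres at -1.18, and the lone point at the right of complex IV is Cox7a2.

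Glycolysis genes were spread far more widely than the respiratory genes. Of 16 tested members 1 was called lower and 0 higher (limma), 8 were lower at an unadjusted p below 0.05, edgeR called 0 and DESeq2 called 9 lower. Over all tested genes the shares lower were 0.576% (limma), 6.01% (unadjusted p below 0.05), 0.232% (edgeR) and 4.24% (DESeq2). The median log2 fold change was -1.18, and 11 of 16 had an absolute log2 fold change of at least 1, as did 15% of all tested genes and 1 of the 42 respiratory members (Cox7a2). The hexokinase gene Hk2 stood at 108 and 169 RPM in controls 1 and 2 and at 35.2 and 38.1 RPM in mutants 1 and 2 (adjusted p = 0.0477). That call was lost under TMM or median-of-ratios scaling, without the filter, at a pseudocount of 0.5 RPM, with edgeR and without either mutant library, while the log2 fold change stayed alike: -1.85 here, -1.94 with median-of-ratios scaling and -2.01 with edgeR. With a replicate block Hk2 had an adjusted p of 0.0275, and 3 glycolysis genes were called lower, against 1.06% of all tested genes. DESeq2 gave Hk2 an adjusted p of 7.81e-06. Pfkfb3, which makes an activator of glycolysis, differed by -2.04 on the log2 scale (adjusted p = 0.104). The glucose transporter gene Slc2a1 gave 124 and 464 RPM in the controls and 33.7 and 35.4 RPM in the mutants. Both genes were lower in each mutant, and both were higher in control 2 than in control 1. The size of this difference, and for some genes its direction, depended on the control. The glycolysis median was -0.61 against control 1 alone and -1.89 against control 2 alone. Against control 1 alone 9 genes lay below 0 and 7 above, and against control 2 alone 14 below and 2 above. Of all 11638 tested genes 5655 lay below 0 against control 1 alone and 4866 against control 2 alone. Between the controls themselves 12 of the 16 differed by over 2-fold (75%), as did 18.2% of all tested genes. Summed glycolysis amplicons took 4690 and 12374.5 RPM in controls 1 and 2, and 3067 and 3511 RPM in mutants 1 and 2. Across the same libraries the 41 respiratory amplicons ran only from 5099 to 6289 RPM. No test compared the 2 lists.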

How the data were processed

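RNA of 4 libraries was read with the Ion AmpliSeq mouse transcriptome panel, per the labels' protocols. The authors deposited 1 table of RPM (reads of an amplicon scaled to the library total) per amplicon and library, for which the labels name no aligner or counter. Whole reads were recovered from the steps of the RPM values (100% of values within 0.01 of a whole read). Genes that reached 1 RPM in 2 or more libraries were tested on log2(RPM + 1) with limma 3.58.1 (trend, two-sided, R 4.3.3), and Benjamini-Hochberg adjusted p-values below 0.05 were called. EdgeR 4.0.16 (quasi-likelihood) and DESeq2 1.42.0 on the recovered reads, other scalings, filters and pseudocounts, a replicate block and fits without each library were alternatives; the scripts were tested on simulated data. The members and lists were chosen with earlier results of these data known. Per complex, the 3 genes of smallest p and the 2 nearest the median were named, with any gene near 0 in a single library or of extreme ratio, and the 3 of smallest p per related list. Gene positions are from GENCODE M21 (GRCm38) and promoters from RefSeq (GRCm38.p6). An amplicon reads 1 short target and does not see the rest of its transcript.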

Additional observations from a re-analysis of the deposited data

How the results depend on the processing

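None of the 42 subunit genes was called under TMM or median-of-ratios scaling, no filter, a filter at 5 RPM, pseudocounts of 0.5 or 5 RPM, edgeR, the replicate block or, added after seeing the data, without amplicons near 0 in a single library. DESeq2 called 3 lower. Leaving out each library in turn gave 0 to 1 called higher and 0 to 3 lower, the most without control replicate 1. The lone library is then assumed to vary like the others. The median log2 fold change of the members was -0.2054 with TMM, -0.2198 with median-of-ratios scaling, -0.2167 with edgeR and -0.2314 with DESeq2, and ran from -0.2826 (without control replicate 1) to -0.0799 (without control replicate 2). Over all genes, 598 were called higher and 493 lower with DESeq2, 66 and 27 with edgeR, and 56 and 18 with no filter, where 19400 genes were tested. Leaving out each library in turn gave 0 to 1609 higher and 0 to 802 lower, with 0 of both without either mutant; 1065 and 794 were called without control replicate 2. Apart from the fewer samples, the cause was not tested. With the replicate number as a block, 301 genes were called higher and 123 lower and no member call changed; with 2 pairs the numbers were not taken to pair the libraries (correlation of deviations 0.164). The call of Hk2 was lost under TMM and median-of-ratios scaling, without the filter, at a pseudocount of 0.5 RPM, with edgeR and without either mutant. With 2 libraries a group, the 95% interval of a subunit gene other than Cox7a2 reached a median of 0.565 on the log2 scale to either side. That interval is not adjusted for the number of genes tested, and a difference beyond it could still go uncalled. Ndufa6, at -0.91, was not called (limma adjusted p = 0.118).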
